A study of Drosophila melanogaster with 3 samples.

Results

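The genes described are 9 core components of programmed cell death in Drosophila melanogaster, taken by symbol from the dm6 annotation out of 13968 protein-coding genes on the chromosome arms. They are the death inducers rpr, hid, grim and skl, the inhibitor Diap1, the initiator caspase Dronc with its adaptor Dark, and the effector caspases Drice and Dcp-1. The data are peaks of chromatin immunoprecipitation and sequencing (ChIP-seq) for Rel, the NF-κB factor of the IMD immune pathway, pulled down with an anti-GFP antibody from a transgenic line with Rel fused to GFP. One label places the GFP at the N terminus and another writes Rel-eGFP, so its position is uncertain. There was 1 group of 3 biological replicates of whole wandering larvae of the third instar, males and females together, of unknown age, and all 3 carried the fusion. No infection or other treatment is named in the labels, a control experiment that they name was not analysed here, and neither the promoter that drives the fusion nor the presence of untagged Rel is given in the sources used here. In whole larvae the tissue that a peak comes from was not measured.

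Cell death in the fly is held in check by Diap1, a ubiquitin ligase that binds caspases. The proteins Reaper, Hid, Grim and Sickle share a short N-terminal motif with which they bind Diap1 and free the caspases from it. Freed Dronc is activated on a scaffold of the Apaf-1 homologue Dark and then cleaves Drice and Dcp-1, which dismantle the cell. The inducer genes lie in one region of chromosome arm 3L, and their transcription is known to carry developmental hormone, stress and DNA damage signals into this pathway.

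The sequences under the summits of the inducers, of Dronc and of Diap1 are given first, since these are the promoters and the intronic element on which the results turn. A summit is the base of highest enrichment in a peak. Each sequence runs 5′ to 3′ on the strand of its gene, from the release 6 genome sequence of RefSeq, the sequence of dm6. Capitals mark matches on either strand to 4 patterns that were searched in all windows, namely the κB consensus, a relaxed κB form that accepts any pyrimidine at the last 2 positions, the DRE TATCGATA and the AP-1 site TGANTCA. Every κB consensus match is also a relaxed match. Sequence inside untranslated regions is left out.
Dronc, from 100 bp before the summit to the base before the TSS (chr3L:9968344-9968478, plus strand, AP-1 in capitals): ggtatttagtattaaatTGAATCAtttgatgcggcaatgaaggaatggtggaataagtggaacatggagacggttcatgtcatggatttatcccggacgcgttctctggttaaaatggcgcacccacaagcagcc
rpr, 100 bp to each side of the promoter summit (chr3L:18398456-18398656, minus strand, relaxed κB in capitals): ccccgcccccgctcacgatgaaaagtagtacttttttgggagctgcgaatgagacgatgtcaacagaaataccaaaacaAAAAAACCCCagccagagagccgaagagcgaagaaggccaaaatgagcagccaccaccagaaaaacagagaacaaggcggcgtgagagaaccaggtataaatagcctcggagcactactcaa
rpr, part of the upstream peak (chr3L:18402477-18402557, minus strand, relaxed κB and then AP-1 in capitals): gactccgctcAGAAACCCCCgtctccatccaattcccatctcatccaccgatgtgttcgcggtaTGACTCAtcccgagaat
hid, 100 bp to each side of the promoter summit (chr3L:18185822-18186022, minus strand, no match): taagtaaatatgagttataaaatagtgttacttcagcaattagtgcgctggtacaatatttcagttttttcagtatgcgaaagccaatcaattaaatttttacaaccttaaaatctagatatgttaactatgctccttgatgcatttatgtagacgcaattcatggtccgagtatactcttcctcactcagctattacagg
Diap1, from 100 bp beyond the promoter summit to the base before the TSS (chr3L:16051035-16051229, minus strand, a pair of DREs in capitals): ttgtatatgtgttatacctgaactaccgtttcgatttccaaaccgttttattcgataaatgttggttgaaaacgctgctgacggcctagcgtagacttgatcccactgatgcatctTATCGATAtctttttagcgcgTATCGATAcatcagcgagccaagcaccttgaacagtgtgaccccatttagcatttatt
Diap1, 100 bp to each side of the strongest summit, in an intron (chr3L:16046104-16046304, minus strand, no match): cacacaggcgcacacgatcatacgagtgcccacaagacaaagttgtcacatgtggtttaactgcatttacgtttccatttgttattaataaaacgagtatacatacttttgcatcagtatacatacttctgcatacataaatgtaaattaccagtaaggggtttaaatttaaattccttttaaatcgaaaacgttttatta
Diap1, the only κB consensus match under its summits, in an intron (chr3L:16044158-16044187, minus strand, κB in capitals): cactaacgagGGGACATCCCccacccctcc

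The first question was which of the 9 genes carried Rel peaks. Dronc, Diap1, Dcp-1, Dark, rpr, hid and Drice had a summit of the optimal list within 1000 bp of a transcription start site (TSS), and grim and skl had none. The optimal list holds 9419 peaks and was derived by the authors from reproducibility between replicates (irreproducible discovery rate, IDR). It is the strongest part of the list called on the pooled alignments, and not every peak in it was matched in every replicate. The count was 7 of 9 members (77.8%), beside 37.8% of the 13959 other protein-coding genes. Within 5000 bp of the gene it was again 7 of 9, beside 63.2% of other genes in the optimal list and 72.7% in the pooled list, so the wider window set the members less apart. No test was made of a list of 9 genes that were picked with results of these data known.

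In all, 34 optimal summits lay within 5000 bp of the members. Diap1 had 13, Dcp-1 and Dark 5 each, rpr and Dronc 4 each, Drice 2 and hid 1. The windows also hold other genes, and for 15 of the 34 summits the nearest protein-coding TSS was that of a neighbour. Within 500 bp of any protein-coding TSS lay 21 of the 34 summits (61.8%), beside 47.8% of all optimal summits. The ranks by peak signal ran from 54 to 8906 with a median of 4493.5 in a list of 9419, so the set lay around the middle of the list. The pooled list added 31 weaker summits in the same windows, for 65 in all.

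**Figure D1:**
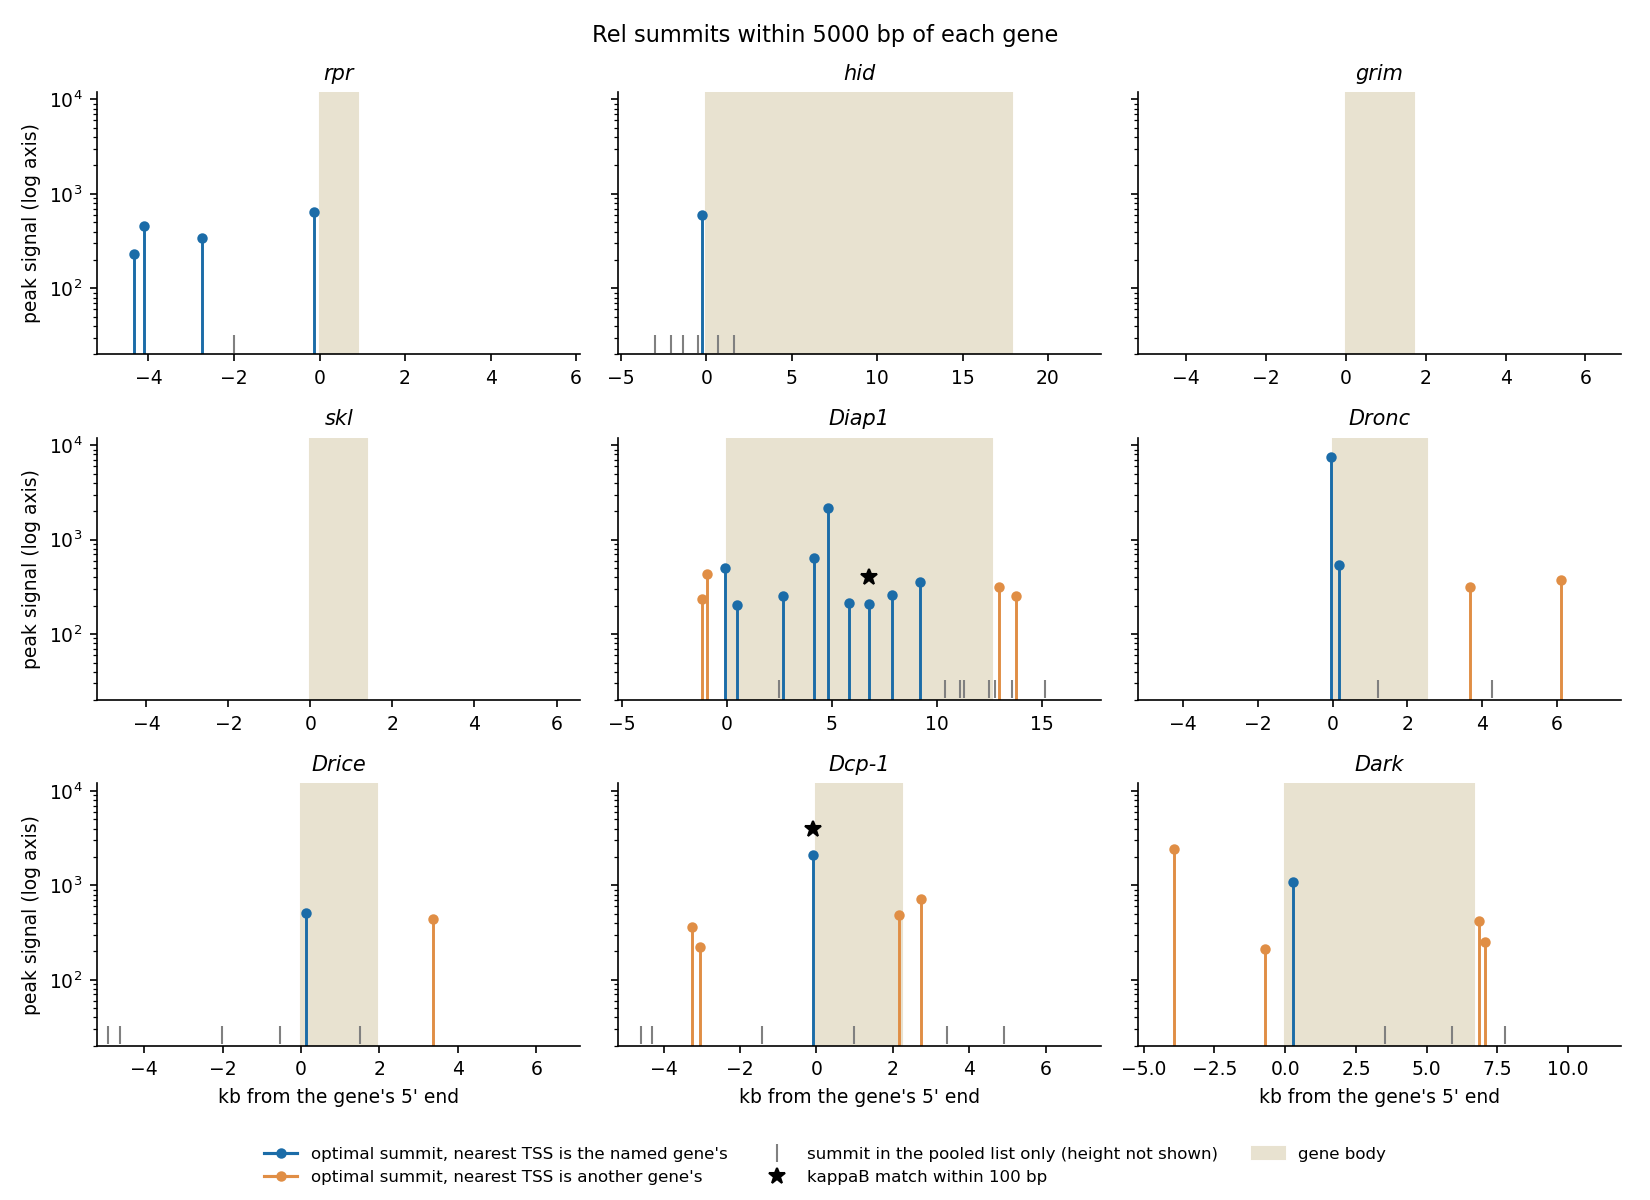
Optimal summits within 5000 bp of each of the 9 genes, by distance from the gene's 5′ end (kb, horizontal) and the authors' peak signal (vertical, log axis). Blue stems are summits whose nearest protein-coding TSS is that of the named gene, orange stems belong to neighbours, grey ticks are summits found in the pooled list only and stars mark a κB consensus match. The Dronc promoter summit is the tallest, Diap1 has 13 stems, and the panels of grim and skl are empty.

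Levels were compared as relative signal, which is a replicate's peak signal at the matching summit divided by the median over all optimal summits matched in that replicate, so that 1 is a typical optimal peak. Dronc was the highest of the members. Its strongest summit had a relative signal of 13.1 in replicate 1, 25.8 in replicate 2 and 16.0 in replicate 3. Its mean was 18.3 ± 6.66 (SD, n = 3), and its lowest replicate lay above the highest replicate of every other member. The strongest Diap1 summit had 5.70, 4.51 and 5.99 in replicates 1, 2 and 3 (5.40 ± 0.79), and that of Dcp-1 had 4.77, 4.50 and 5.95 (5.07 ± 0.77). These ranges overlap, so the order of Diap1 and Dcp-1 was not resolved. The Dark promoter followed with 2.43, 2.86 and 2.71 (2.67 ± 0.22), below all replicates of Dcp-1 and above all of rpr.

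At rpr the 3 values were 1.38, 1.69 and 1.83 (1.63 ± 0.23, SD, n = 3), at hid 1.67, 1.30 and 1.65 (1.54 ± 0.21) and at Drice 1.61, 0.89 and 1.27 (1.26 ± 0.36). The ranges of these 3 genes overlapped, and their order was not resolved. The inducers with a peak were therefore above the typical optimal peak in every replicate, while Drice was below it in replicate 2. That reference covers all matched optimal summits, weak ones included, whereas each gene is given by its strongest summit near a TSS. Of the 21 pairs among the 7 genes, 17 had ranges that did not overlap. Dark was counted here by its promoter summit. The stronger summit in its window, near Ehbp1, ran from 3.43 to 8.57 and overlapped Diap1 and Dcp-1. The 7 summits counted ranked from 54 to 3274, and the same share was not computed for other genes. The count therefore shows nothing particular to the members. With 3 replicates of 1 group no test between these genes was made.

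**Figure D2:**
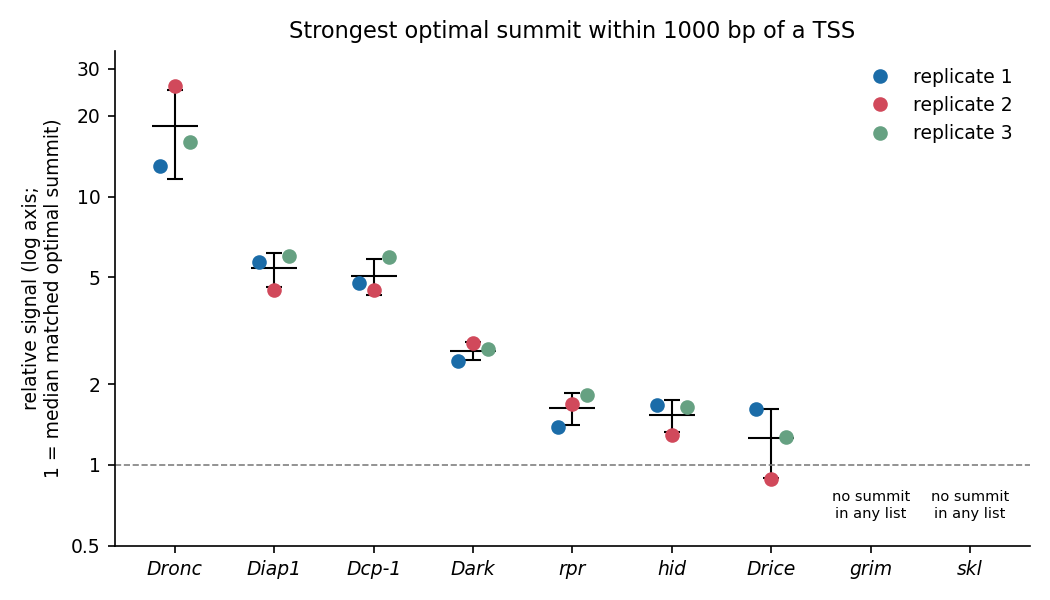
Relative signal (vertical, log axis, 1 is the median matched optimal summit) of the strongest optimal summit within 1000 bp of a TSS of each gene. Points are the 3 replicates and black bars the mean ± SD. Dronc lies at 13.1 to 25.8, above all points of the other genes, and grim and skl have no summit in any list.

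The inducer genes were compared across their shared locus, ordered hid, grim, rpr and skl along 3L and all on the minus strand. The gene bodies are chr3L:18167745-18185641 for hid, chr3L:18302719-18304417 for grim, chr3L:18397535-18398435 for rpr and chr3L:18438561-18439942 for skl. rpr and hid each had an optimal summit at the promoter and none in the gene body. At rpr it lay 121 bp upstream of the only TSS (chr3L:18398335-18398785, rank 2415, signal 651), with ranks of 3017, 2440 and 2159 in replicates 1, 2 and 3. At hid it lay 281 bp upstream of the only TSS (chr3L:18185760-18186156, rank 2671, signal 601), with ranks of 2346, 3417 and 2467. The promoter summits of both genes were thus well inside the top 9419 of every replicate. Inside the hid peak replicate 2 had a second summit (chr3L:18186056, rank 5289), and replicate 1 a weaker one (rank 19485). The replicate 2 value at hid therefore also depends on where summits were placed. The nearest TSS of another protein-coding gene was 41386 bp away for rpr and 15572 bp away for hid, so no other annotated coding promoter was near.

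Upstream of rpr were 3 more optimal summits, 2737, 4095 and 4330 bp from its TSS and all intergenic. The one at 4095 bp was the strongest of them (rank 3805) and had a relative signal of 1.03, 0.94 and 1.32 in replicates 1, 2 and 3, close to a typical optimal peak. It held a relaxed κB match 8 bp and an AP-1 match 37 bp from the summit, both in the sequence printed above. The summit at 2737 bp (rank 5352) had 0.52, 1.17 and 0.77, and that at 4330 bp (rank 7972) had 0.37, 0.46 and 0.69. The rpr promoter summit itself had a relaxed κB match 12 bp away (sequence above). No match to any pattern lay in the window of the hid summit.

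grim and skl (2 of 9 members, 22.2%) had 0 summits within 5000 bp in the optimal, pooled and 3 replicate lists, beside 20.6% of other protein-coding genes, a share near the background. The nearest summit of the pooled list was 28299 bp from grim and 35796 bp from skl. A list of 30000 peaks leaves out weaker enrichment, so binding below it was not measured. From the outer end of grim to the outer end of skl (chr3L:18302719-18439942, 137224 bp) lay 4 optimal summits, those of rpr, all within 4210 bp. This is 0.291 per 10000 bp, against 0.713 on the whole of 3L. The pooled list had 5 summits there, and replicates 1, 2 and 3 had 5, 6 and 4.

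Between grim and rpr, 93117 bp held no summit of any list, and grim sat in a summit-free stretch of 121991 bp. On the large chromosome arms 93 stretches were at least this long. The stretch around skl was 216015 bp long, and 24 were as long. Neither holds an unresolved base in the genome sequence, and how well reads map there was not tested. The stretch between hid and grim differed, with 11 optimal and 46 pooled summits in 117077 bp, or 3.93 pooled summits per 10000 bp against 2.30 on 3L. The difference lay on the hid side, where the 11 optimal summits spanned 50640 bp. From the last of them, 66157 bp up to grim held no optimal summit.

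The genes annotated from grim to skl are grim, rpr, skl and the non-coding genes lncRNA:CR45975, asRNA:CR45974, lncRNA:CR46353 and lncRNA:CR46215. Of these, rpr alone had a summit of any list within 1000 bp. The interval held 22 matches to the κB consensus, or 1.60 per 10000 bp, against 0.984 on 3L. None of the 22 had a summit of any list within 1000 bp, beside 38.4% of all matches on 3L, and the closest was 7361 bp from a summit, of replicate 2. All 22 lie in the summit-free stretches around grim and skl, so they do not count independently of those stretches. Overlapping matches on opposite strands with different starts were counted separately.

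**Figure D3:**
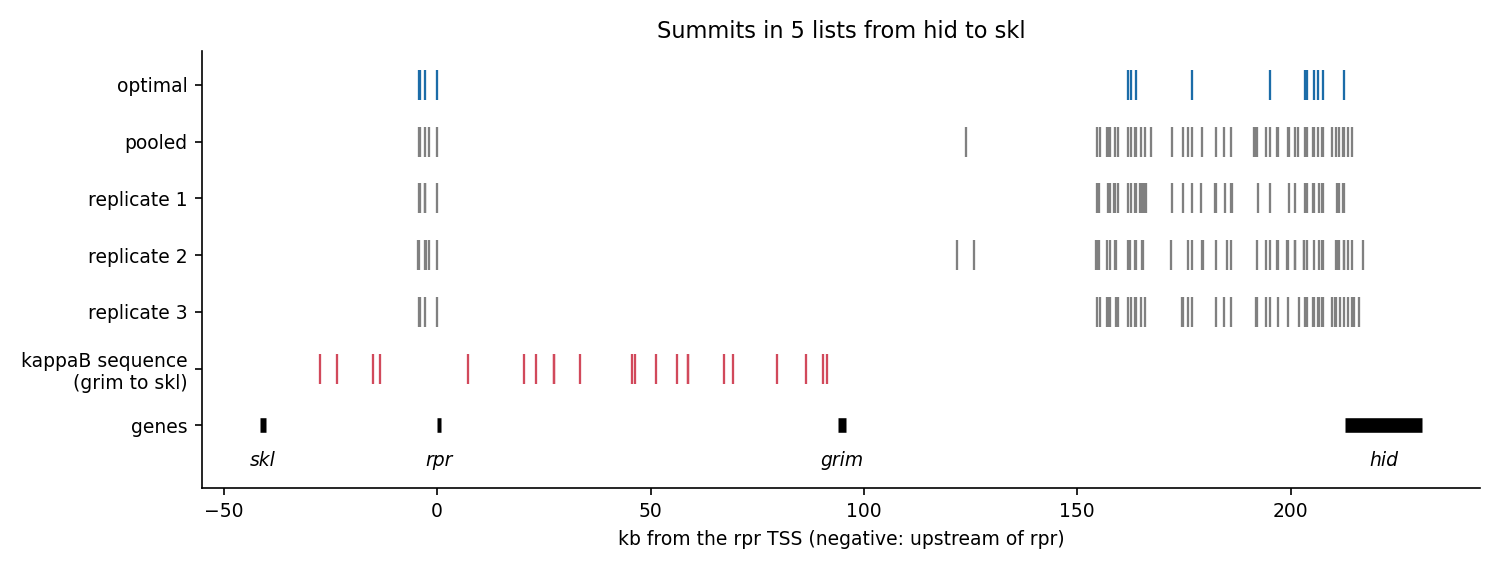
Summits of the optimal list (blue) and the 4 other lists (grey) from hid to skl, with κB consensus matches of the grim to skl interval (red) and gene bodies (black), by distance from the rpr TSS in kb. All 5 lists have summits just upstream of rpr and along the stretch next to hid, and none between rpr and grim, where 18 of the 22 κB matches lie.

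Diap1 (chr3L:16038410-16051034, minus strand) encodes the inhibitor that keeps Dronc, Drice and Dcp-1 in check. Its 13 optimal summits compare with a median of 1 over other protein-coding genes, of which 0.437% had at least as many within 5000 bp. Longer genes have longer windows, and among the 605 other genes within 20% of the length of Diap1 (12625 bp) the median was 2 and 0.992% had at least as many. For 9 of the 13 the nearest protein-coding TSS was 1 of the 5 annotated for Diap1, while 2 belonged by this measure to Mbs, a myosin phosphatase subunit gene, and 2 to CG5895. The summits ran from chr3L:16037238 to chr3L:16052192, past both ends of the gene. None lay in the 3′ part of the gene body below chr3L:16041818. Of the 13, 7 had ranks of 7222 or beyond.

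The strongest, in the peak chr3L:16045640-16046629, ranked 536 (signal 2158) and lay in an intron, 642 bp downstream of an internal Diap1 TSS. Replicates 1, 2 and 3 ranked it 436, 727 and 446, so it was high in each. No pattern matched in its window, printed above. Another intronic summit, 40 bp upstream of the same internal TSS, ranked 2429. It had a relative signal of 2.05 in replicate 1 and 2.09 in replicate 3, but 0.58 in replicate 2.

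The summit at the outermost Diap1 TSS went the other way. It lay 95 bp upstream of that TSS (rank 3321) and had a relative signal of 0.95, 1.98 and 0.93 in replicates 1, 2 and 3. Replicate 2 was thus low at the internal start and high at the outer one, while replicates 1 and 3 were close to each other at both. A pair of DREs, sites that are typical of housekeeping promoters, lay 16 and 37 bp from this summit, beside 3.35% of all optimal summits with any DRE within 100 bp. The κB consensus match of Diap1 was 60 bp from a weak intronic summit of rank 8725 (relative signal 0.55 ± 0.07, SD, n = 3), which also had an AP-1 match 15 bp away.

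Dronc (chr3L:9968479-9971002, plus strand) encodes the initiator caspase, related to mammalian caspase-9. Its promoter peak (chr3L:9968091-9969002) ranked 54 in the optimal list with a signal of 7463, against a list median of 383. The replicate lists, each of 30000 peaks, placed it at rank 87, 38 and 64 in replicates 1, 2 and 3. It was thus among the strongest peaks of every replicate. Of the other protein-coding genes, 0.401% had a promoter-proximal summit of this rank or a higher one. The summit lay 35 bp upstream of the only annotated Dronc TSS, and also 127 bp from the TSS of CG6685, which is transcribed in the opposite direction, so the peak cannot be assigned to one of these genes.

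Neither κB form matched within 100 bp of the strong Dronc summit, whose best site fitted 6 of the 8 fixed positions of the consensus. The window did hold the AP-1 match shown above, 77 bp from the summit. A second summit of the same peak, at rank 3054, lay 178 bp downstream of the TSS in the 5′ UTR and had a relaxed κB match 76 bp away. The 2 further summits in the Dronc window lay 112 bp from the TSS of CG6674 and 68 bp from that of dpr6, at ranks 5882 and 4773. The one at CG6674 varied most among the members' summits matched in every replicate, with a relative signal of 0.23, 1.19 and 0.93 in replicates 1, 2 and 3.

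The summits within 1000 bp of a TSS that came next to Dronc in signal were taken, 3 on each side. Above it were CG5290 (rank 51, 599 bp from the TSS), Spn27A (rank 52, 133 bp), a serpin that inhibits the Toll cascade, and MEP-1 (rank 53, 775 bp). Below it came pirk (rank 55, 458 bp), which dampens IMD signalling, beta4GalNAcTA (rank 56, 19 bp) and Pp2C1 (rank 58, 681 bp). The likeness is in pooled signal over 1 list only. Their relative signals, from 17.6 ± 2.10 at pirk to 19.3 ± 2.40 at CG5290 (SD, n = 3), were all within the SD of the Dronc value.

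Dark (chr2R:17020027-17026703, plus strand) encodes the Apaf-1 homologue on which Dronc assembles. Its own summit (chr2R:17019852-17020579, rank 1278, signal 1075) lay in an intron 281 bp downstream of the TSS, with ranks of 1413, 1288 and 1298 in replicates 1, 2 and 3, a narrow spread. A stronger summit in the Dark window, at rank 450, lay 3922 bp upstream of Dark but 211 bp from the TSS of Ehbp1. It had a relative signal of 3.43, 8.57 and 5.67 in replicates 1, 2 and 3 (5.89 ± 2.57, SD, n = 3). The other 3 were nearest to Paip1 and RhoGEF2, and none of the 5 matched any of the 4 patterns.

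Dcp-1 (chr2R:23551313-23553547) and Drice (chr3R:29799658-29801584), both on the plus strand, encode the effector caspases. The Dcp-1 summit (chr2R:23550931-23551469, rank 563, signal 2080) lay 101 bp upstream of its TSS and inside the 5′ UTR of pita, a zinc finger gene transcribed from the other strand with a TSS 339 bp away. Replicates 1, 2 and 3 ranked it 568, 728 and 453. Among the strongest summits of the 7 genes it alone had a κB consensus match, 67 bp away (chr2R:23551136-23551145). The Drice summit (chr3R:29799471-29799949, rank 3274, signal 514) lay 128 bp downstream of its TSS in the 5′ UTR, with an AP-1 match 71 bp away, no κB match and the TSS of Rnb 432 bp away. The relative signals of these caspase genes did not overlap, with Dcp-1 the higher in 3 of 3 replicates.

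The 4 other summits in the Dcp-1 window were nearest to pita, wmd and levy, the strongest in an intron of pita (rank 2130, with a relative signal of 1.29, 2.66 and 1.60 in replicates 1, 2 and 3). A summit in the 3′ UTR of Dcp-1 and an intron of pita (rank 3533) had 1.65, 0.46 and 1.75 in replicates 1, 2 and 3, and one 18 bp from the TSS of levy (rank 8297) had 0.32, 1.29 and 0.32. Replicate 2 again stood on the other side from replicates 1 and 3. Between the optimal summits at wmd and levy, however, replicate 2 had a lone summit (chr2R:23548223), which was matched to levy only. Replicates 1 and 3 had separate summits at wmd and levy, so the levy values also depend on where summits were placed. The second summit in the Drice window (rank 3962) lay 89 bp from the TSS of Etfb and was the steadiest of all, with 1.07, 1.13 and 1.20.

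Over the 34 summits the κB consensus matched at 2 (5.88%), beside 7.80% of all optimal summits, and the relaxed form at 5 (14.7%), beside 20.6%. A best site fitting at least 7 of the 8 fixed positions was present at 11 (32.4%), beside 38.3%. These shares were near the background. DRE matched at 2 (5.88%), beside 3.35%, and AP-1 at 4 (11.8%), beside 6.73%, each on few summits. None of the 31 pooled summits outside the optimal list had a κB consensus match, beside 3.42% of all such summits. The 4 with AP-1 were the promoter summits of Dronc and Drice, an rpr upstream summit and the Diap1 intron.

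How far replicates shared these summits was also near the background. A summit within 100 bp was found in all 3 replicate lists for 29 of 34 (85.3%), beside 90.4% of all optimal summits, and among the top 9419 of all 3 for 19 (55.9%), beside 64.3%. The 5 others were 3 summits at Diap1 and 1 each at Dcp-1 and Dark, all unmatched in replicate 2, and 1 of them, next to Mbs, also in replicate 3. Near each of the 5, replicate 2 did have a summit beyond the 100 bp limit. An example is chr3L:16050438 near the Diap1 summit at chr3L:16050542. Unmatched therefore does not mean that a peak was absent nearby. The highest replicate exceeded the lowest by a median of 1.84 times over the 29, against 1.57 over all optimal summits matched in 3 lists. Replicate 1 was the highest at 3 of the 29 (10.3%) and at 30.8% of all. Replicate 2 was the highest at 14 (48.3%), beside 41.3% of all, and the lowest at 11 (37.9%), beside 36.6%. A replicate 2 value at either extreme was thus common over the whole list. Close neighbours were common, with 10 of 34 summits (29.4%) within 250 bp of another, beside 13.7%.

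**Figure D4:**
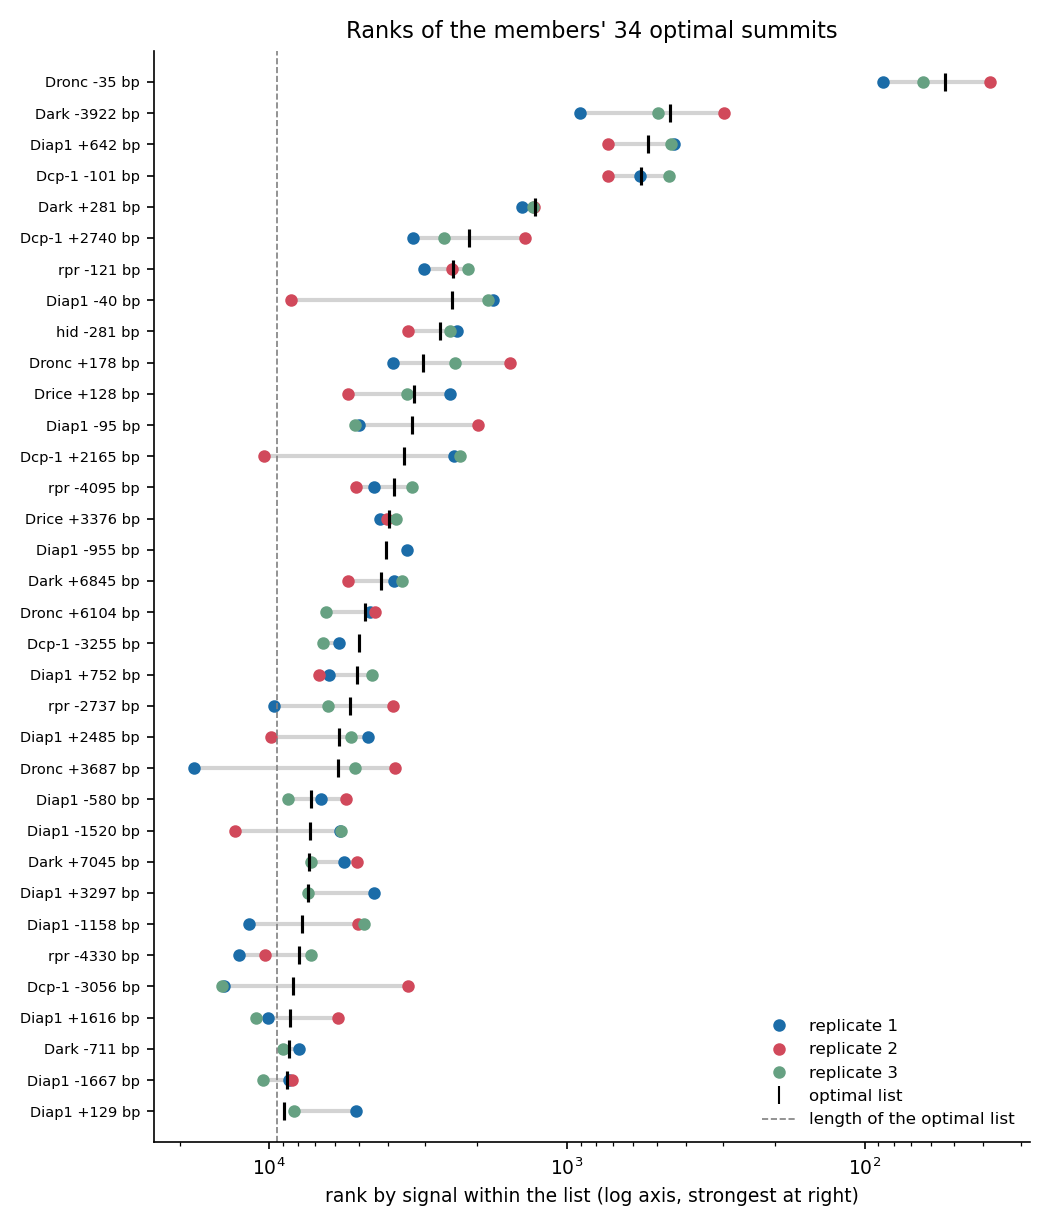
Rank by signal of the 34 optimal summits within 5000 bp of the members, in the optimal list (black ticks) and in replicates 1 to 3 (points), on a log axis with the strongest at the right. Labels give the member and the distance in bp from its nearest TSS, and the dashed line is the length of the optimal list. The Dronc promoter stays right of rank 100 in the optimal list and every replicate, and several Diap1 and Dcp-1 summits have replicate 2 far from the other replicates.

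Other genes of the pathway were counted in 5 lists of 38 genes. Of these, 17 (44.7%) had an optimal summit within 1000 bp of a TSS, beside 37.8% of other protein-coding genes, and 26 (68.4%) within 5000 bp of the gene, beside 63.2%. Among other caspases 2 of 4 had one, namely Dredd (rank 2706), the caspase that cleaves Rel in the IMD pathway, and Strica (rank 5898). The Dredd summit lay 210 bp from its TSS but nearer to su(sable). Among regulators of inhibitors 3 of 9 had one, led by the ubiquitin ligases Ubr3 (rank 878, relative signal 3.74 ± 0.45, SD, n = 3) and Diap2 (rank 2988, 1.35 ± 0.24). Both ranked below the strongest summits of Diap1 and Dcp-1.

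In the list of Bcl-2 family, p53 and death receptor genes 4 of 9 had a summit, with ranks of 6491 or beyond. The strongest were at lok (rank 6491), the fly Chk2 kinase, and Buffy (rank 7637), a Bcl-2 family gene, both nearer to the TSS of a neighbour. Genes of engulfment had the most, with 7 of 9, led by mbc (rank 1283) and ced-6 (rank 2042), an adaptor for the receptor Draper. The mbc summit lay nearer to the TSS of a neighbouring nucleoporin gene and varied widely (2.54 ± 1.86, SD, n = 3). Of 7 genes of DNA fragmentation only EndoG had one (rank 6083). None of the 17 strongest summits had a κB consensus match, beside 7.80% of all optimal summits, a difference that rests on few summits.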

How the data were processed

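ChIP-seq peak lists of 3 biological replicates of 1 group were used, with fragments of 200 to 800 bp per the labels. Peaks were called by the authors per replicate and on the pooled alignments, with a control and on dm6, and the optimal list was derived by IDR, per the file headers. Which aligner, caller and threshold they used is stated in no source used here. Peak height is the signal value as deposited by the authors, on the scale of the caller. The deposited −log10 q-value was tied at its highest value for 11473 to 14513 peaks per replicate, so peaks were ranked by signal. The lists hold no read counts, so depth is unknown and no counting interval can be given.

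A summit is the peak start plus the deposited offset. TSSs, genes and features came from the Ensembl release 115 annotation, and sequence from the RefSeq release 6 genome. All summits and genes lay inside its arms. All 9419 optimal peaks are in the pooled list, as its strongest. Summits within 100 bp were matched, and motifs were searched within 100 bp of a summit in Python 3.11.15 with functions tested on simulated data. The annotated class is given at the summit base.

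The members, lists, motifs and alternatives were chosen with earlier results of these data known, except that 2 alternatives (7 of 8 κB positions, close summits left out) were added on seeing the values here. Named were all 9 members, the genes from grim to skl and the 2 strongest genes of each list. Also named were the genes of the 3 summits within 1000 bp of a TSS next above and below the strongest member in signal. Jafrac2 was matched by an older name. No test was made, since there is 1 group and the members were chosen with results known.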

Additional observations from a re-analysis of the deposited data

How the results depend on the processing

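The 7 members with a summit within 1000 bp of a TSS remained 7 in each alternative tried. These were TSS windows of 500 and 2000 bp, the pooled list, the 4709 strongest peaks and leaving out each replicate in turn. Other genes with one ranged from 22.9% to 53.5% over these lists, and no such share was computed for the 500 and 2000 bp windows. The count could not rise, since grim and skl had no summit within 5000 bp in any list. Nor could it fall in the pooled list, which holds all optimal peaks, or with the 2000 bp window. It could have fallen only with the 500 bp window, among the strongest peaks or without a replicate. Without a replicate means only optimal summits matched in the top peaks of both others. The 34 summits then numbered 20 to 26, with 22 without replicate 1 and 20 without replicate 3, in sets of 6895 and 6568 peaks. They were 65 in the pooled list, 17 among the 4709 strongest, and 22 when taken by nearest TSS at any distance, of which 19 are among the 34. The 4 summits from grim to skl were 2 to 3 without a replicate, with 2 without replicate 2 and 2 without replicate 3, and 2 among the 4709 strongest. The 2 κB matches were 1 to 2 without a replicate, 1 without replicate 1 and 1 without replicate 2. They were 1 among the 4709 strongest, 5 with the relaxed form, 0 within 50 bp of the summit and 11 with at least 7 fixed positions, an alternative added after seeing the data. Smaller sets and looser patterns change these counts by construction. The strongest summits of 7 members were matched in all 3 replicates, and of 5 members within 50 bp. Of the recomputed relative signals of the members' strongest summits, the Dark promoter and the stronger summit near Ehbp1 included, 45 moved by less than their SD. Leaving out 1 of 3 replicates cannot move a mean by as much as its SD, so those recomputations could not fail. The 1 exception was the Dark promoter, at 2.38 with only the top peaks of each replicate, against 2.67 ± 0.22. The other strongest summits fell in that setting too, Dronc from 18.3 to 16.3 and rpr from 1.63 to 1.46 for example. Their SDs were larger for their level. No paired analysis was possible because there is 1 group. Depth is unknown, which limits every statement on absent peaks to these lists.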
